A study of Mus musculus with 18 samples.

Results

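The hypothalamus of lean, untreated mice was described from 6 libraries, one per animal, out of 18 libraries in the series. The members were all samples titled as lean controls, replicates 1 to 6. They came from male wild-type C57BL/6JGpt mice that ate chow and received no drug. The deposited sample table gives an age of 7 months, and the labels call these animals matched in age, sex and background to diet-induced obese (DIO) mice, which make up the other groups of 6 and are not compared here. Before the study, mice were accustomed to handling by vehicle gavage over 14 days per the labels, which leave unsaid if this included the lean animals. The tissue is whole microdissected hypothalamus, so each value is a mixture over all its cells, and a lower level can mean fewer cells of a type or less RNA per cell, which cannot be told apart.

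The hypothalamus joins the brain to the endocrine system. Neurons of its paraventricular and supraoptic nuclei release oxytocin and vasopressin from the posterior pituitary, neurons of the arcuate nucleus sense hunger and satiety hormones, and lateral neurons that make orexin and melanin-concentrating hormone act on arousal and feeding. Tanycytes, specialised glia that line the floor of the ventricle, carry hormones between blood, cerebrospinal fluid and these neurons.

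RNA was primed at the poly(A) tail and counted at the 3′ end, so a transcript gives about the same number of counts whatever its length. Levels are therefore given in CPM, the count in a library scaled to a total of 1000000 counts with trimmed-mean factors, and not divided by length. Differences in how well a 3′ end is primed and annotated remain in any comparison of levels between genes. Values written with ± are means and SDs over the 6 animals. Library totals ran between 2069960 and 3695646 counts. A count of 0 in all 6 libraries allows a level of up to 0.191 CPM, taking 3 counts over the pooled total, and this limit covers counting error only. Of 56980 features, 25730 had no count in any lean library and 13083 reached 1 CPM in all 6. Replicate 6 stood apart from the others. A principal component analysis put 50.9% of the variance on its first axis, with replicate 6 at -45.3 and the others between 2.22 and 17.7. The median absolute log2 difference between replicate 6 and another animal was 0.32 to 0.41, against 0.18 to 0.23 between replicates 1 to 5. Its RNA integrity number was 10.0, against 9.4 to 9.7 in the others. Sums of whole lists whose SD fell by over 1.5 times without replicate 6 are given with and without it.

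Transcription factors of the hypothalamus had a larger summed level than the markers of cortex and hippocampus, over lists of 20 and 5 genes. The lists differ in size and choice of genes, so their sums are no measure of dissection. The 20 transcription factors of the hypothalamic list summed to 591 ± 65.5 CPM, or 614 ± 38.2 CPM without replicate 6. Of these, 11 had a mean of at least 10 CPM, and Zfhx3 held 41.0% of the sum. Zfhx3, a factor of the suprachiasmatic clock and other nuclei, lay between 155 and 312 CPM, with a median of 246 CPM. Six3, which acts in forebrain and eye development, lay between 89.2 and 132 CPM, with a median of 107 CPM. Otp, needed for neuroendocrine neurons of the paraventricular and arcuate nuclei, was close in all animals, between 53.01 and 64.7 CPM, with a median of 59.4 CPM. Isl1, a factor of arcuate neurons, lay between 22.9 and 30.4 CPM, with a median of 26.996 CPM. Hmx2 varied most among the factors, with a coefficient of variation (CV, the SD as a share of the mean) of 42.7%. Here and below, the gene with the largest CV of a list is chosen among members with a mean count of at least 20. Markers of the neighbouring cortex and hippocampus summed to 15.6 ± 5.01 CPM, with no member at 10 CPM. Markers of the anterior pituitary summed to 17.8 ± 8.57 CPM, highest in replicate 6, 30.6 CPM, and between 10.3 and 25.7 CPM in the others. Cga, the shared subunit of its glycoprotein hormones, lay between 0.429 and 18.3 CPM, with a median of 6.85 CPM, and replicate 6 was highest. The striatal markers summed to 51.5 ± 5.21 CPM. The thalamic list of 4 genes was higher, 276 ± 41.8 CPM, with all 4 at 10 CPM or more. Its members Calb2 (103 ± 21.5 CPM), Rorb (81.2 ± 8.65 CPM) and Tcf7l2 (73.02 ± 30.5 CPM) are also expressed outside the thalamus. Replicate 5 had the highest Tcf7l2, 131 CPM, and the other animals lay between 49.7 and 77.99 CPM. The male-specific gene Ddx3y had counts in all 6 animals, between 81.9 and 117 CPM, with a median of 105 CPM. Xist, the RNA that coats the inactive X chromosome of females, was also counted in all 6, between 1.53 and 18.4 CPM, with a median of 6.73 CPM.

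**Figure D1:**
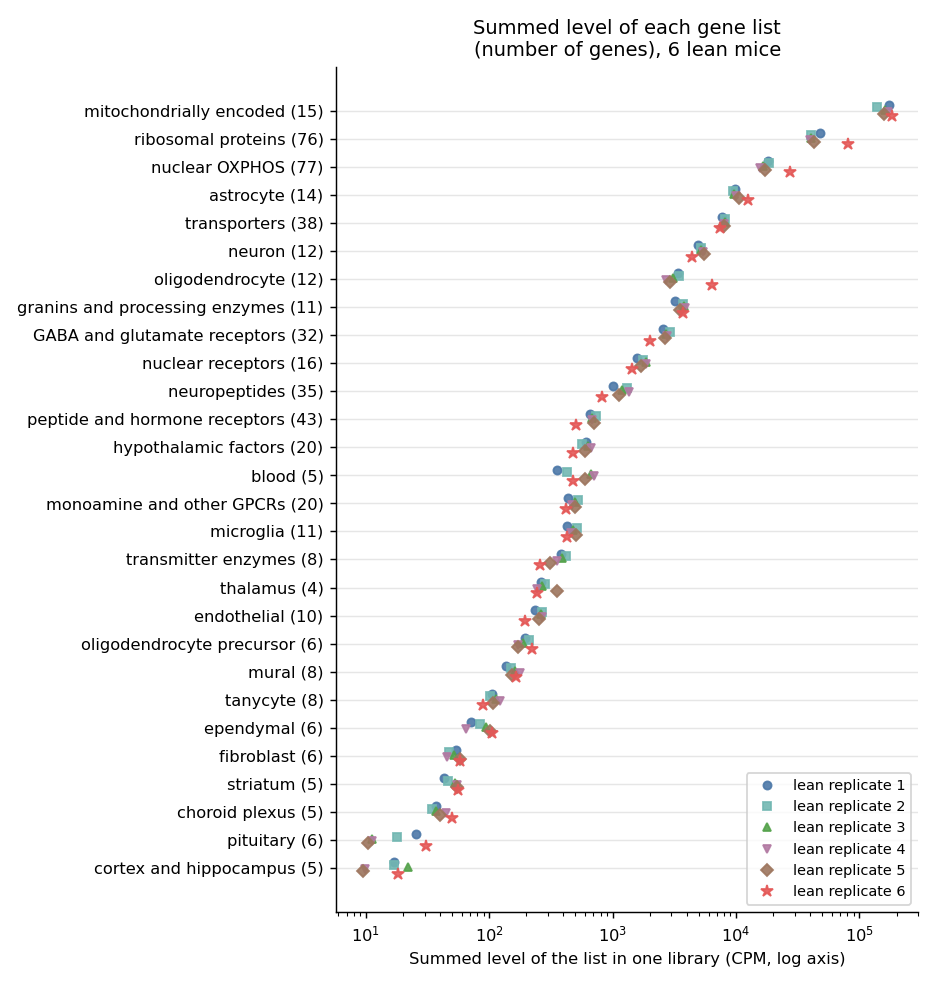
Summed level of each gene list in each library (CPM, log axis), with the number of genes in brackets. Each symbol is 1 animal. The mitochondrially encoded genes summed to 164556 ± 15558 CPM and the 35 neuropeptide genes to 1132 ± 196 CPM, and replicate 6 lay apart from the others for oligodendrocyte and ribosomal protein genes.

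The 35 neuropeptide precursor genes together held 1132 ± 196 CPM, about 0.117% of all counts. Of these, 20 had a mean of at least 10 CPM, 9 lay at 1 to 10 CPM, 4 lay lower, and Ucn and Npw, the genes of urocortin and neuropeptide W, had no count in any animal. The summed level was lowest in replicate 6, 818 CPM, and between 1006 and 1347 CPM in the others. Without replicate 6 it was 1195 ± 136 CPM. None of the 20 members with a mean count of at least 20 was highest in replicate 6, and 13 were lowest there. Over all 9750 genes at that count, 28.7% were highest and 34.1% lowest in replicate 6.

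Among magnocellular and parvocellular peptides, oxytocin led. Oxt lay between 64.2 and 172 CPM, with a median of 125 CPM. Avp, the vasopressin gene, lay between 33.6 and 176 CPM, with a median of 60.5 CPM. Replicate 4 alone carried the high Avp value, 176 CPM, while the other animals lay between 33.6 and 73.3 CPM. Avp was the neuropeptide with the largest spread, with a CV of 68.1%, where counting error alone would give 7.18%. Oxt was above Avp in 5 of 6 animals, and replicate 4 was the exception. The log2 ratio of Oxt over Avp was 0.80 ± 0.73, which did not pass the threshold of 0.05 after adjustment over the 14 gene pairs compared here (two-sided exact sign-flip permutation test, p = 0.0625, Benjamini-Hochberg adjusted p = 0.0673). Trh, the precursor of thyrotropin-releasing hormone, had its one low value, 14.8 CPM, in replicate 6, and the others lay between 39.02 and 52.6 CPM. Crh, the gene of corticotropin-releasing hormone, averaged 6.6 ± 4.91 CPM.

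Among the arcuate feeding peptides, Cartpt had the highest mean and Agrp the lowest. Cartpt, the precursor of the satiety peptide CART, lay between 48.9 and 72.04 CPM, with a median of 68.2 CPM. Npy, the hunger peptide made by AgRP neurons, lay between 19.9 and 116 CPM, with a median of 48.4 CPM. Replicate 4 was again the high animal, at 116 CPM, and the others lay between 19.9 and 50.3 CPM. Pomc, whose product is cut into the satiety signal alpha-MSH, lay between 25.5 and 48.5 CPM, with a median of 34.3 CPM. Agrp, the antagonist of melanocortin receptors made in the same neurons as Npy, lay between 7.55 and 18.01 CPM, with a median of 11.3 CPM. Agrp was below Npy in 6 of 6 animals, with a log2 ratio of -2.09 ± 0.71, and below Pomc in 6 of 6, with a log2 ratio of -1.59 ± 0.51. Both ratios had the smallest p that 6 animals allow in this exact test, 0.03125 (adjusted p = 0.0398). Tac2, the neurokinin B gene of arcuate reproductive neurons, lay between 3.06 and 17.9 CPM, with a median of 12.3 CPM, and replicate 6 was the low animal. Ghrh, which drives growth hormone release, averaged 3.81 ± 2.45 CPM, and Kiss1 averaged 0.3 ± 0.734 CPM with counts in a single animal.

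In the lateral list, Pmch, the precursor of melanin-concentrating hormone, was even between animals, between 95.7 and 127 CPM, with a median of 109.9 CPM, with a CV of 9.82%. Hcrt, the orexin gene, was not, between 20.9 and 82.1 CPM, with a median of 44.1 CPM, with a CV of 44.8%. Replicate 6 was lowest and replicate 2 highest for Hcrt. Hcrt was below Pmch in 6 of 6 animals, by a log2 ratio of -1.37 ± 0.65 (exact permutation p = 0.03125, adjusted p = 0.0398). Nts, neurotensin, lay between 20.2 and 34.3 CPM, with a median of 27.1 CPM. Gal, galanin, lay between 29.6 and 41.6 CPM, with a median of 31.4 CPM.

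The 20 neuropeptide genes outside these lists had a steadier sum, 466 ± 42.8 CPM with a CV of 9.18%. The CV was 29.8% for the arcuate list, 33.2% for the paraventricular and supraoptic list and 16.8% for the lateral list. Without replicate 6 these 4 CVs were 5.96%, 23.7%, 20.99% and 15.2%. A sum over more genes can be steadier, and the other lists hold 7, 4 and 4 genes. In the same order, median member CVs were 14.9%, 33.1%, 34.2% and 26.2%, over members with a mean count of at least 20. These differences in spread were not tested. Tac1, the substance P gene, lay between 96.6 and 135 CPM, with a median of 120.3 CPM. Sst, somatostatin, lay between 47.9 and 98.6 CPM, with a median of 82.6 CPM. Adcyap1, the PACAP gene, lay between 69.8 and 84.9 CPM, with a median of 75.2 CPM. The opioid precursors Penk and Pdyn averaged 58.4 ± 10.5 CPM and 57.3 ± 18.3 CPM. Cck, cholecystokinin, averaged 28.6 ± 4.22 CPM and Nmb, neuromedin B, 12.6 ± 2.63 CPM. Bdnf, a neurotrophin counted with these genes, was the most even of all, between 25.7 and 29.2 CPM, with a median of 27.8 CPM. Its CV of 4.22% was smaller than the 11.7% that counting error alone would give on average, so no spread beyond counting was detectable at this depth.

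Ordered by mean, the peptides formed a slope with few steps. Among the 28 neighbouring pairs of genes with a mean of at least 1 CPM, the higher gene was higher in all 6 animals in 2, Pmch over Sst and Nts over Nmb. The gap between means exceeded the larger SD in 4 pairs. The first places, Oxt, Tac1 and Pmch, did not differ beyond their spread.

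**Figure D2:**
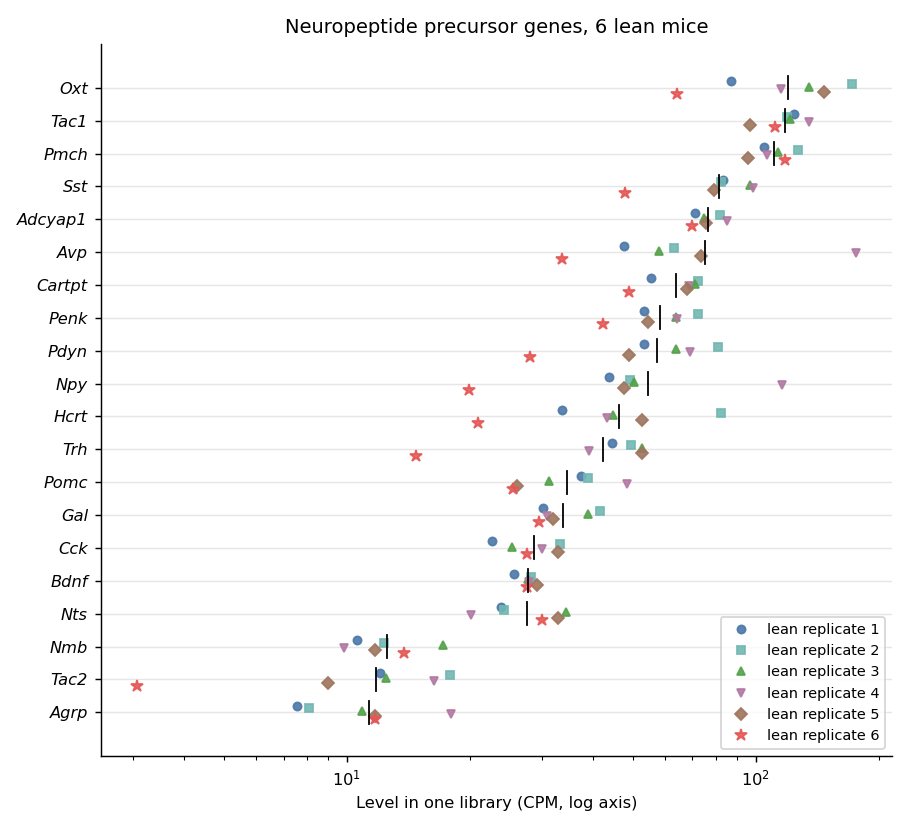
Level of the 20 neuropeptide genes with a mean of at least 10 CPM, one symbol per animal and a bar at the mean (CPM, log axis). Replicate 4 stood alone at the high end for Avp (176 CPM) and Npy (116 CPM), and replicate 6 at the low end for Trh (14.8 CPM).

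The list of granins and processing genes had a larger summed level than the neuropeptide precursors, mostly from Cpe and the granins. The 11 granin and processing genes summed to 3622 ± 241 CPM, and all had at least 10 CPM. Cpe, the carboxypeptidase that trims cut peptides, lay between 1609 and 2384 CPM, with a median of 1927 CPM, and held 53.9% of the list. Scg2, a granin of dense-core vesicles, lay between 499 and 668 CPM, with a median of 594 CPM. Pcsk1n, an inhibitor of the proconvertase Pcsk1, lay between 215 and 331 CPM, with a median of 301 CPM. Scg5, the chaperone of the proconvertase Pcsk2, averaged 192 ± 20.3 CPM. The proconvertases Pcsk2 and Pcsk1 averaged 58.6 ± 8.76 CPM and 26.5 ± 5.53 CPM. Vgf, a secreted granin-like protein, varied most, between 55.05 and 155 CPM, with a median of 127 CPM, with replicate 6 lowest. The granins as a subgroup were lowest in replicate 6, 1175 CPM, and between 1379 and 1659 CPM in the others, while Cpe was highest there.

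Peptide and hormone receptors had a lower summed level than the peptides, although the receptor Adcyap1r1 had a higher mean than any peptide. The mean of the receptor Ntsr2, 124 ± 9.89 CPM, did not differ beyond the spread from that of the first peptide, Oxt, 120 ± 39.6 CPM. The 43 receptor genes summed to 662 ± 81.4 CPM, or 693 ± 31.6 CPM without replicate 6, with 13 at 10 CPM or more, 22 at 1 to 10 CPM and 8 lower. Adcyap1r1, the PACAP receptor, lay between 141 and 203 CPM, with a median of 179.6 CPM. Ntsr2, a neurotensin receptor of astrocytes, lay between 108 and 134 CPM, with a median of 127 CPM. Oprl1, the nociceptin receptor, lay between 66.4 and 115 CPM, with a median of 83.5 CPM. These, with the prolactin receptor Prlr, between 19.4 and 48.5 CPM, with a median of 41.4 CPM, were the only neighbours in the order that were separated in all 6 animals, each standing above the next gene, with Prlr above Calcr, the calcitonin receptor. The other 30 of 34 neighbouring pairs of receptors above 1 CPM were not so ordered. The summed level was lowest in replicate 6, 506 CPM, and between 655 and 741 CPM in the others. Prlr itself was 19.4 CPM there and between 40.5 and 48.5 CPM elsewhere.

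Receptors of feeding hormones lay mostly below 25 CPM. Calcr, which with its partner proteins also binds amylin, lay between 10.2 and 28.7 CPM, with a median of 22.5 CPM. Npy2r and Npy1r, receptors of the NPY family, averaged 21.4 ± 2.63 CPM and 13.4 ± 2.55 CPM. The insulin receptor Insr lay between 9.17 and 14.8 CPM, with a median of 11.96 CPM. Glp1r, the receptor of the incretin GLP-1, varied most among receptors with a mean count of at least 20, between 2.04 and 16.7 CPM, with a median of 7.91 CPM; replicate 6 was lowest and replicate 4 highest. Mc4r, the melanocortin receptor through which alpha-MSH acts on feeding, lay between 4.08 and 7.01 CPM, with a median of 5.6 CPM, and Mc3r lay between 1.13 and 2.25 CPM, with a median of 1.41 CPM. Mc3r was below Mc4r in 6 of 6 animals, with a log2 ratio of -1.59 ± 0.33 (exact permutation p = 0.03125, adjusted p = 0.0398). Ghsr, the ghrelin receptor, averaged 3.998 ± 1.7 CPM. Lepr, the leptin receptor, was near the floor, between 0.377 and 2.55 CPM, with a median of 0.641 CPM, from a total of 13 counts in 6 libraries. Gfral, the GDF15 receptor of the hindbrain, had no count.

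Receptors of oxytocin, vasopressin and the orexins were sparse. Oxtr, the oxytocin receptor, averaged 2.13 ± 0.927 CPM and Avpr1a, a vasopressin receptor, 4.31 ± 2.47 CPM. Avpr1a was above Oxtr in 5 of 6 animals with a log2 ratio of 0.84 ± 0.63, which did not pass (exact permutation p = 0.0625, adjusted p = 0.0673). The orexin receptors Hcrtr1 and Hcrtr2 averaged 2.88 ± 0.835 CPM and 4.18 ± 1.49 CPM. Their log2 ratio of -0.43 ± 0.59 did not pass either (exact permutation p = 0.156, adjusted p = 0.156). Among opioid receptors, Oprk1, the kappa receptor that binds dynorphin, lay between 7.65 and 24.5 CPM, with a median of 18.0004 CPM, and Oprm1 and Oprd1, the mu and delta receptors, averaged 0.947 ± 0.619 CPM and 0.326 ± 0.18 CPM.

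The 20 receptors of monoamines and other small ligands summed to 474 ± 41.5 CPM. Htr2c, a serotonin receptor on feeding circuits, lay between 74.9 and 107 CPM, with a median of 87.5 CPM. Adora1, an adenosine receptor, lay between 62.03 and 88.2 CPM, with a median of 68.2 CPM. Hrh3, a histamine autoreceptor, lay between 35.7 and 73.3 CPM, with a median of 63.4 CPM. Cnr1, the cannabinoid receptor, lay between 38.6 and 68.5 CPM, with a median of 46.04 CPM. Chrm2, a muscarinic receptor, had the largest CV of the list, 32.1%.

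Receptors of the fast transmitters were more abundant, 2601 ± 307 CPM over 32 genes, or 2716 ± 134 CPM without replicate 6. Gria1, an AMPA receptor subunit, lay between 357 and 454 CPM, with a median of 430.4 CPM. Gabbr1, a GABA-B receptor subunit, lay between 321 and 471 CPM, with a median of 413 CPM. Gria1 was above Gria2, the subunit that limits calcium entry, in 6 of 6 animals, with a log2 ratio of 1.41 ± 0.31 (exact permutation p = 0.03125, adjusted p = 0.0398). Gabrb1 was 76.97 CPM in replicate 6 and between 175 and 222 CPM in the others. Of the 26 members with a mean count of at least 20, 17 were lowest in replicate 6, where 34.1% of all genes at that count were lowest. Gabre, the epsilon subunit, had the largest spread of the list, between 1.53 and 20.6 CPM, with a median of 18.1 CPM, with replicate 6 at the low end. NMDA receptor subunits summed to 210.4 ± 48.7 CPM, and to 227 ± 28.3 CPM without replicate 6.

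Nuclear receptors, transcription factors that bind hormones, summed to 1704 ± 170.5 CPM over 16 genes, of which the thyroid hormone receptor Thra held 55.6%. Thra lay between 773 and 1092 CPM, with a median of 966 CPM. Rora lay between 144 and 182 CPM, with a median of 166 CPM. The glucocorticoid receptor Nr3c1 lay between 92.6 and 135 CPM, with a median of 114 CPM. Nr1d2, a repressor of the circadian clock, averaged 115 ± 10.3 CPM, and its relative Nr1d1 had the largest CV of the list, 23.8%. Among sex steroid receptors, Pgr and Esr1 averaged 29.5 ± 4.87 CPM and 10.3 ± 1.78 CPM, and Esr2 averaged 0.786 ± 0.863 CPM.

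Transporters were the steadiest of the functional lists. The 38 genes summed to 7884 ± 264 CPM, a CV of 3.35%, or 7976 ± 154 CPM without replicate 6, and 30 had at least 10 CPM. A sum over many genes can be steadier than its parts, and the median CV of its members was 17.8%, against 17.2% over all genes with a mean count of at least 20. Slc1a2, the main glutamate uptake carrier of astrocytes, lay between 1806 and 2133 CPM, with a median of 1834 CPM. Slc6a11, a GABA uptake carrier of astrocytes, lay between 1148 and 1448 CPM, with a median of 1325 CPM. Atp1b1, a neuronal sodium pump subunit, was 454 CPM in replicate 6 and between 692 and 816 CPM in the others.

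Slc1a3 was below Slc1a2, both astrocyte glutamate carriers, in 6 of 6, by a log2 ratio of -1.79 ± 0.12 (exact permutation p = 0.03125, adjusted p = 0.0398, as for each pair in the rest of this paragraph). This was the narrowest spread of the 14 pairs. Slc2a3, the neuronal glucose carrier, was below Slc2a1, the carrier of the blood-brain barrier and glia, by a log2 ratio of -1.01 ± 0.44 in 6 of 6. Among vesicular carriers, Slc32a1, which loads GABA and glycine, lay between 48.4 and 116 CPM, with a median of 101 CPM. Slc17a6, which loads glutamate in subcortical neurons, lay between 90.7 and 160.5 CPM, with a median of 142 CPM. Slc32a1 was below Slc17a6 in 6 of 6 animals, with a log2 ratio of -0.56 ± 0.24. Slc17a6 was above Slc17a7, the carrier of cortical glutamate neurons, in 6 of 6, with a log2 ratio of 5.54 ± 0.72. Slc17a7 averaged 2.53 ± 1.06 CPM. The GABA-making enzymes followed, with Gad2 below Gad1 in 6 of 6 and a log2 ratio of -0.56 ± 0.28. Levels of different genes read at different 3′ ends, so these ratios compare counts and not molecules of protein.

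Enzymes of transmitter synthesis summed to 353 ± 59.96 CPM over 8 genes. Gad1 lay between 106 and 190.4 CPM, with a median of 133 CPM. Ddc, which makes dopamine and serotonin from their precursors, lay between 60.7 and 82.2 CPM, with a median of 71.5 CPM. Hdc, the histamine-making enzyme of tuberomammillary neurons, lay between 28.3 and 56.6 CPM, with a median of 34.3 CPM. Th, the first enzyme of dopamine synthesis, varied most, between 4.08 and 13.5 CPM, with a median of 11.8 CPM, and replicate 6 was lowest. Chat, Tph2 and Dbh, enzymes of cholinergic, serotonergic and noradrenergic neurons, each averaged under 1 CPM.

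Astrocyte markers had the largest sum of the cell type lists, 10316 ± 1138 CPM over 14 genes, and the neuronal list summed to 5109.8 ± 411 CPM over 12; the lists differ in size and choice of genes, so this is no measure of cell numbers. Glul, glutamine synthetase, lay between 1459.8 and 2859 CPM, with a median of 1966 CPM. Aldoc, a glycolytic enzyme of astrocytes, lay between 1756 and 2474 CPM, with a median of 1913 CPM. Sparcl1, a secreted matrix protein, lay between 1796 and 2278 CPM, with a median of 1848 CPM. Apoe, the lipid carrier, was even, between 1342 and 1546 CPM, with a median of 1458 CPM. S100b, a calcium-binding protein, had the largest CV of the list, 34.4%, with 661 CPM in replicate 6 and between 305 and 358 CPM in the others. The astrocyte sum was highest in replicate 6, 12476 CPM, and between 9446 and 10608 CPM elsewhere, and came to 9883 ± 467 CPM without it. Of the neuronal markers, Map2, a protein of dendrites, lay between 1503 and 1773 CPM, with a median of 1625 CPM. Uchl1, a neuronal ubiquitin hydrolase, lay between 467 and 789 CPM, with a median of 706 CPM. Syt1, the calcium sensor of vesicle release, was 281 CPM in replicate 6 and between 559 and 719.9 CPM in the others. The neuronal sum was lowest in replicate 6, 4374 CPM, and between 4927 and 5471 CPM in the others, and came to 5257 ± 220.0 CPM without it.

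Oligodendrocyte markers had a larger CV of their sum than the astrocyte, precursor and microglial lists. Their 12 genes summed to 3663 ± 1372 CPM, with replicate 6 at 6406 CPM and the others between 2727 and 3465 CPM. Without replicate 6 the sum was 3115 ± 309.8 CPM. Mbp, myelin basic protein, gave 49.9% of the sum and lay between 1121 and 3882 CPM, with a median of 1515 CPM. Mobp, another myelin protein, lay between 239 and 462 CPM, with a median of 263 CPM. Not all members followed. Of the 12, 6 were highest in replicate 6, and Mag, a myelin adhesion protein, was lowest there, between 24.98 and 44.5 CPM, with a median of 37.98 CPM. Over all genes with a mean count of at least 20, 28.7% were highest and 34.1% lowest in replicate 6. Mog, on the outer face of myelin, lay between 8.57 and 13.2 CPM, with a median of 11.2 CPM, and its highest value was in replicate 1. Markers of oligodendrocyte precursors summed to 193 ± 21.02 CPM. Olig1, a factor of the whole lineage, held most of that sum, between 105 and 149 CPM, with a median of 111 CPM. Pdgfra, the growth factor receptor of precursors, was highest in replicate 2, 30.2 CPM, and between 20.2 and 22.3 CPM in the others.

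Microglial markers summed to 469 ± 37.2 CPM over 11 genes. Ctss, a lysosomal protease, lay between 149 and 204 CPM, with a median of 185 CPM. Cx3cr1, the fractalkine receptor, lay between 74.9 and 146 CPM, with a median of 129 CPM. C1qa, a complement component, lay between 27.5 and 58.4 CPM, with a median of 37.8 CPM. P2ry12, the ADP receptor of resting microglia, had the largest CV among those with a mean count of at least 20, between 11.1 and 34.2 CPM, with a median of 18.6 CPM; replicate 6 was highest for it and lowest for Cx3cr1.

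Marker lists for cells of the ventricle wall had low summed levels, which are no measure of cell numbers. The tanycyte list summed to 107 ± 11.1 CPM and the ependymal list to 87.05 ± 16.6 CPM. Dio2, which activates thyroid hormone in tanycytes and astrocytes, lay between 20.9 and 53.6 CPM, with a median of 36.2 CPM. Rax, the factor most particular to tanycytes in the adult hypothalamus, averaged 5.19 ± 1.83 CPM. Foxj1, the factor of motile cilia, lay between 15.9 and 30.6 CPM, with a median of 23.9 CPM. Choroid plexus markers were low, and Ttr, their defining transcript, averaged 1.51 ± 0.987 CPM. Clic6 gave 88.1% of the choroid plexus sum of 40.7 ± 6.01 CPM.

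Vascular markers had list CVs of 11.3% (endothelial), 8.81% (mural) and 9.89% (fibroblast). Counting error alone would give 3.90%, 4.94% and 8.57% in the same order, so the fibroblast CV lay close to its counting part. Without replicate 6 the list CVs were 5.22%, 9.71% and 9.68%, which made the endothelial list the steadiest in place of the least steady. The lists differ in depth, so this order is not one of spread between animals alone. The 10 endothelial genes summed to 248 ± 28.1 CPM, or 258 ± 13.5 CPM without replicate 6, 8 mural genes to 158 ± 13.9 CPM and 6 fibroblast genes to 52.6 ± 5.21 CPM. Flt1, a VEGF receptor of endothelial cells, lay between 51.99 and 95.2 CPM, with a median of 76.9 CPM. Ly6c1, a brain endothelial surface protein, lay between 28.5 and 59.8 CPM, with a median of 43.7 CPM. Cldn5, the tight junction protein of the blood-brain barrier, had the largest CV of the endothelial list, between 6.63 and 19.1 CPM, with a median of 15.5 CPM, and was lowest in replicate 6. Rgs5, a pericyte gene, gave 79.5% of the mural sum and lay between 109 and 151 CPM, with a median of 123 CPM. Acta2, the smooth muscle actin of arterioles, averaged 4.62 ± 1.14 CPM. Dcn, a matrix proteoglycan of fibroblasts, lay between 8.58 and 25.6 CPM, with a median of 19.5 CPM. Haemoglobin genes followed another pattern. The blood list summed to 537 ± 139 CPM, lowest in replicate 1, 352 CPM, and highest in replicate 4, 701 CPM. Hbb-bs averaged 209 ± 59.7 CPM and Hba-a2 203 ± 63.02 CPM. The paired globin genes are near-identical copies, so the split of counts within a pair is uncertain and the sum is the firmer value.

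Mitochondrially encoded transcripts, which code for core subunits of the respiratory chain, were the most abundant group. The 15 genes listed, 13 for proteins and 2 for ribosomal RNAs, summed to 164556 ± 15558 CPM, and all mitochondrial features held 15.7% to 19.2% of the counts of a library. The ribosomal RNAs mt-Rnr2 and mt-Rnr1 gave 49.6% of that sum. mt-Rnr2 lay between 47821 and 69101 CPM, with a median of 61673 CPM, and replicate 2 was the low animal. By complex, the 7 subunits of complex I summed to 41898 ± 2664 CPM, the 3 of complex IV to 25889.9 ± 2944 CPM, the 2 of complex V to 7434 ± 769.7 CPM and mt-Cytb, of complex III, to 7787 ± 593 CPM. Without replicate 6 the sums of complexes IV, V and III were 24837 ± 1588 CPM, 7163 ± 436 CPM and 7554 ± 181 CPM. mt-Co3, a subunit of cytochrome oxidase, lay between 12062 and 16283 CPM, with a median of 13721 CPM. mt-Nd4 and mt-Nd1, of complex I, were the steadiest, with CVs of 5.07% and 5.39%. mt-Nd3 was the least steady, between 2418 and 5392 CPM, with a median of 2787 CPM, with replicate 6 high. mt-Nd2 averaged 8136 ± 987 CPM, mt-Atp6 7028 ± 717 CPM, mt-Co1 6982 ± 889.5 CPM and mt-Co2 4947 ± 735 CPM. mt-Nd5, mt-Nd4l and mt-Atp8 averaged 3572 ± 496 CPM, 977 ± 182 CPM and 406 ± 67.5 CPM. mt-Nd6, which alone among the protein genes is read from the light strand, had the lowest mean, 316 ± 52.1 CPM. How well a 3′ end is primed and annotated can differ between these genes, so their order is one of counts and not of transcript amounts.

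These levels depend on how reads were assigned, because the nuclear genome holds a near-identical stretch of mitochondrial DNA. In GENCODE M21 transcripts (GRCm38), 7 annotated nuclear pseudogenes on chromosome 1 matched a mitochondrial protein gene with at least 99% identity over at least 200 bases. They summed to 15825 ± 3130.3 CPM. Gm28437, which is identical to mt-Co3 over 783 bases, was itself among the 15 most abundant features, 5261 to 8828 CPM with a median of 6796 CPM, and held 32.9% of the counts of both. Gm28661 held 39.2% of its sum with mt-Co2, Gm10222 35.9% with mt-Nd4l, Gm28438 25.4% with mt-Nd3, Gm10925 24.9% with mt-Atp6 and Gm29216 17.6% with mt-Co1. Gm28439 covers only the first 876 of 1378 bases of mt-Nd4 and held 2.43%. The mitochondrial gene had more counts than its copy in 6 of 6 animals for each of the 7.

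The genes and their copies were compared base by base, since the shared letters decide which reads can be told apart. The last 60 aligned bases of mt-Co3, next to the 3′ end that the kit reads, are the same letter for letter in the nuclear copy. For mt-Nd3 and mt-Co1 the copy differs by a single base over the aligned stretch, T3C in mt-Nd3 and A1066T in mt-Co1, with positions counted from 1 at the 5′ end of the mitochondrial transcript and the mitochondrial base first. Capitals mark that base, and the sequences are GENCODE M21 transcripts of GRCm38, 5′ to 3′.
mt-Co3, bases 724 to 783: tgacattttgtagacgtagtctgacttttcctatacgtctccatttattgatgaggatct
Gm28437, bases 724 to 783: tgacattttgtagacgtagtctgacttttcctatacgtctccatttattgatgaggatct
mt-Nd3, bases 1 to 60: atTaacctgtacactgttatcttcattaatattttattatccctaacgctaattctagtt
Gm28438, bases 1 to 60: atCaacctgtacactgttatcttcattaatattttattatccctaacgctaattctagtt
mt-Co1, bases 1063 to 1122: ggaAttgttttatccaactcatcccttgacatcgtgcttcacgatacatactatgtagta
Gm29216, bases 10 to 69: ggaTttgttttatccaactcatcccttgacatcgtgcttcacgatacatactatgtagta
Within the aligned stretches of these 3 genes, and away from the single bases shown, a read carries no letter that tells the mitochondrial gene from its copy. With the counts of the copies added to their partner genes, the mitochondrial sum was 180381 CPM. The order of the protein genes by mean then changed between places 4 and 10. mt-Atp6 stood at place 4 in place of 6, at 9355 ± 1133 CPM, mt-Nd2 at 6 in place of 4, and mt-Cytb at 8 in place of 5. Some of these places were near ties. Before the copies were added, mt-Nd2 was above mt-Cytb, and mt-Atp6 above mt-Co1, in 3 of 6 animals. With them, mt-Nd2 at 8136 ± 987 CPM and mt-Co2 at 8131 ± 1401 CPM did not differ beyond their spread.

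**Figure D3:**
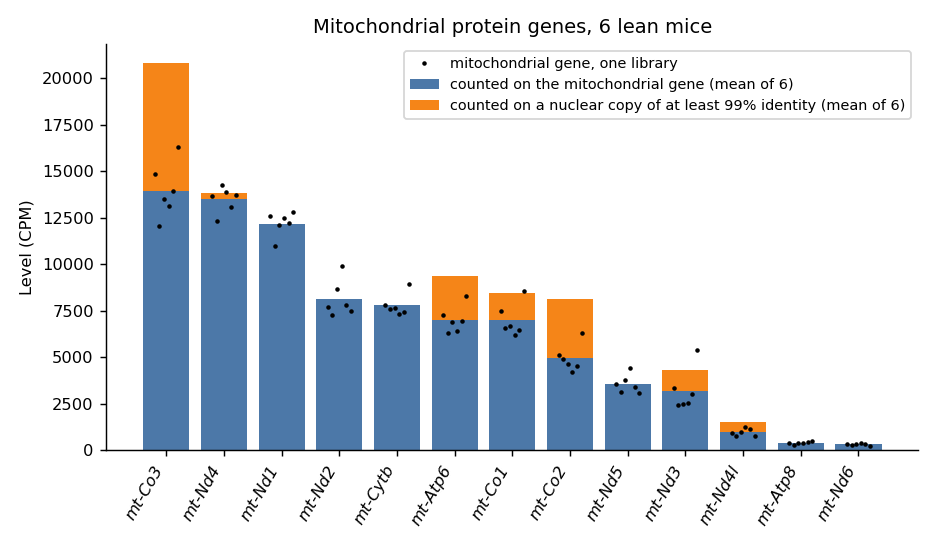
Mean level of the 13 mitochondrial protein genes (blue) with the mean level of their nuclear copies of at least 99% identity stacked above (orange), in CPM on a linear axis from 0. Black points are the mitochondrial gene in each of the 6 libraries. The copy of mt-Co3 added 6848 CPM and that of mt-Co2 3185 CPM.

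Nuclear genes of the respiratory chain, and those of the cytosolic ribosome, were added after values had been seen, to set beside the mitochondrial genome. The 77 nuclear subunit genes summed to 18929 ± 4304 CPM. Cox6c, of complex IV, lay between 1091 and 2302 CPM, with a median of 1121 CPM. Atp5g3, of the ATP synthase membrane ring, lay between 854 and 1559.7 CPM, with a median of 1142 CPM. Replicate 6 was highest for 69 of the 76 members with a mean count of at least 20, and the sum was 27467 CPM there and between 15660.3 and 18359.8 CPM in the others. The 76 ribosomal protein genes summed to 48772 ± 16270.5 CPM, and replicate 6 was highest for all 76, with a sum of 81426 CPM and between 39552 and 47773 CPM in the others. Without replicate 6 the sums were 17221 ± 1135 CPM and 42241 ± 3318 CPM. Replicate 6 had 28.7% of all genes with a mean count of at least 20 at their highest. The mitochondrial sum in replicate 6 was 183544 CPM, near the 174503 CPM of replicate 1. The trimmed-mean factor of replicate 6 was 0.948, against 1.03 to 1.07 in the others, which raises its CPM relative to theirs. As a share of library counts, all mitochondrial features held 18.3% in replicate 6, 19.1% in replicate 1 and 19.2% in replicate 4. Reads of ribosomal protein genes can be shared with their many pseudogenes. Replicate 6 also had the highest RNA integrity number and the lowest count total, and their part in these values was not tested.

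**Figure D4:**
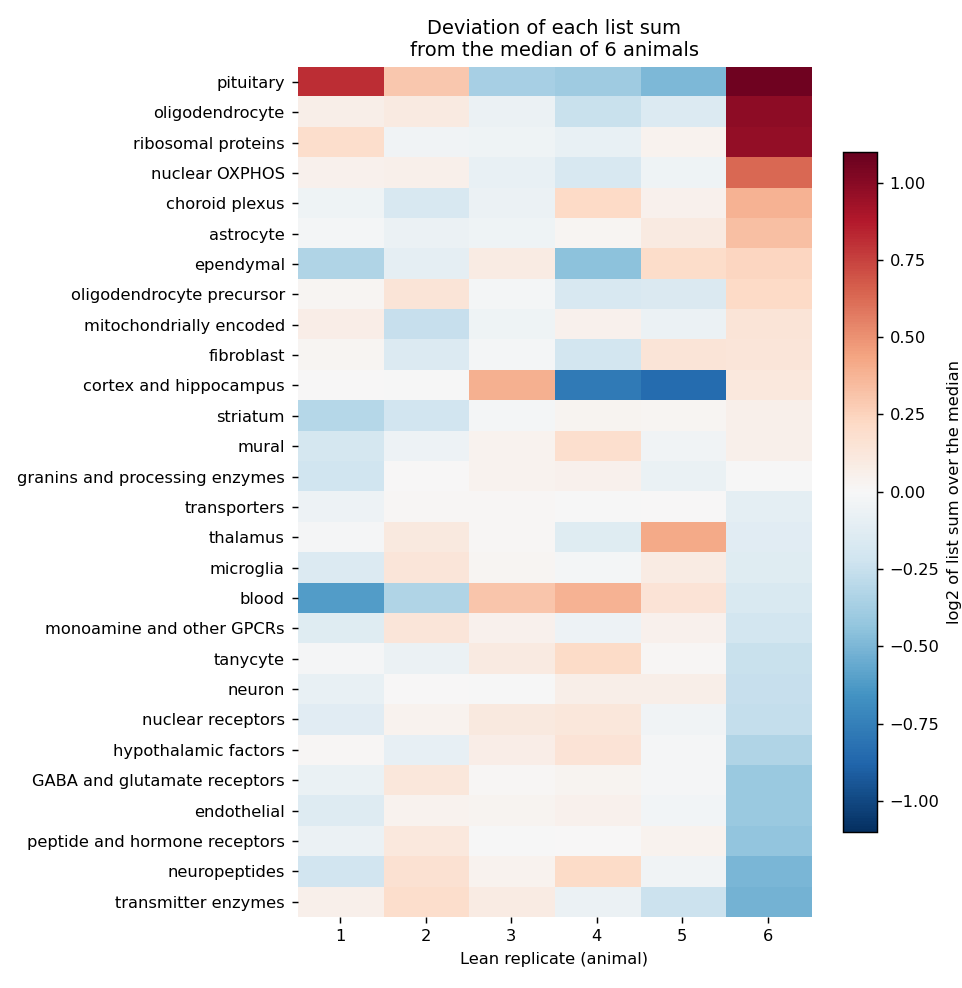
Log2 of each list sum in an animal over the median of the 6 animals, red above and blue below, with lists ordered by replicate 6. Replicate 6 was high for pituitary, oligodendrocyte, ribosomal protein and nuclear respiratory chain (OXPHOS) genes and low for neuropeptides, their receptors and transmitter enzymes, while replicates 1 and 4 were the low and high ends for blood.

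Beyond the mitochondrial genes, a few transcripts of other kinds stood among the most abundant features. The first 15 held 22.4% of counts, the first 100 35.03%, and the first 409 held 50%. Lrrc17 was second to mt-Rnr2, between 14874 and 28897 CPM, with a median of 22912 CPM. In GENCODE M21 Lrrc17 overlaps Fbxl13 on the opposite strand, and the sources used here do not tell if counting was by strand, so these counts cannot be assigned to Lrrc17 alone. Bc1, a small noncoding RNA of dendrites, lay between 13009 and 22950.1 CPM, with a median of 20027 CPM. Rn18s-rs5, an 18S ribosomal RNA copy, averaged 7929.8 ± 1065 CPM. Sparc, a secreted matrix glycoprotein of glia and endothelium, was the most abundant nuclear protein-coding gene after Lrrc17, between 4226 and 6139.9 CPM, with a median of 5334 CPM.

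Across genes, most of the spread between animals was small. Of 9750 genes with a mean count of at least 20, the median CV was 17.2%, where counting error alone gave a median of 11.2%, and it was 13.3% without replicate 6. A CV above 30% was found in 1142 genes (11.7%), above 50% in 143 (1.47%) and above 100% in 12. Where counting error is small, at a mean count of 500 or more, the median CV of 742 genes was 13.6% and the counting part 3.38%. Without replicate 6 that median was 8.28%. Among lists with at least 10 members at a mean count of 20, median member CVs were lowest in the mitochondrial list, 12.7%, and the neuronal list, 13.2%. They were highest for peptide and hormone receptors, 23.8%, and ribosomal proteins, 31.0002%. The median CV over all genes was 22.6% at a mean count of 20 to 50, so lists of unlike abundance are not directly comparable. Replicate 6 was highest for all 76 ribosomal protein genes, against 28.7% of all genes with a mean count of at least 20.

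Among the most variable genes, many had their spread from 1 animal. Olfr859, an olfactory receptor gene, was 301 CPM in replicate 6 and between 0.252 and 5.84 CPM in the others. Dapk2, a death-associated kinase, was 68.5 CPM in replicate 2 and between 0 and 1.95 CPM in the others. Chst3, a chondroitin sulfotransferase, was 66.8 CPM in replicate 1 and between 0 and 1.8 CPM in the others. Replicate 4 was alone at the high end for Tekt1, a protein of cilia, at 57.5 CPM, with the others between 3.27 and 9.05 CPM. It was also highest for the neutrophil proteins S100a8, between 4.53 and 44.2 CPM, with a median of 10.9 CPM, and S100a9, between 1.76 and 27.4 CPM, with a median of 8.16 CPM, in the animal with the highest haemoglobin sum. Others differed between several animals. Ms4a1, the B cell marker CD20, lay between 0 and 190.1 CPM, with a median of 41.99 CPM, with replicates 1, 2 and 5 high and no count in replicate 6. Rab11fip1, a partner of the vesicle protein Rab11, was 2.25 CPM in replicate 5 and 8.16 CPM in replicate 6, and between 70.8 CPM and 120.0 CPM in the other 4. Tnfrsf12a, Atad5, Snhg6, Ankrd44, Hspb11 and Ptp4a3 were also among the 15 largest CVs, between 76.8% and 140.1%, with the highest value in replicate 1 for Tnfrsf12a, in replicate 4 for Atad5, Ankrd44 and Ptp4a3, and in replicate 6 for Snhg6 and Hspb11.

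**Figure D5:**
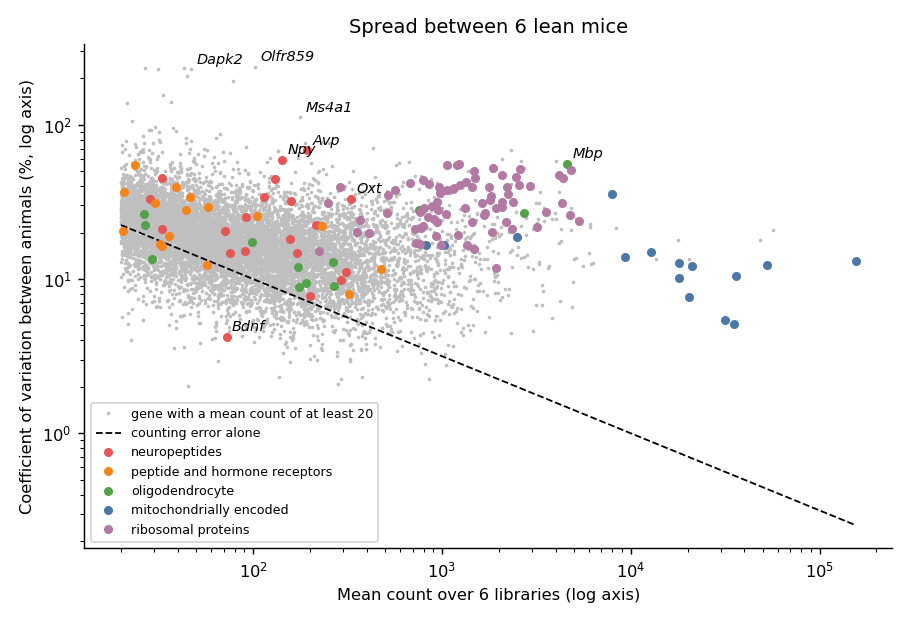
Coefficient of variation between the 6 animals against mean count, both on log axes, for 9750 genes (grey) with list members in colour. The dashed line is the spread that counting error alone would give. Mitochondrial and ribosomal protein genes lay far above the line, Bdnf lay below it, and Avp and Npy were the most variable neuropeptides.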

How the data were processed

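The members and gene lists were chosen with earlier results of these data known. Poly(A) RNA of 18 hypothalami, 6 of them lean, was sequenced with a 3′ mRNA kit carrying unique molecular identifiers, per the labels' protocols, which call all samples independent. Per the submitters' processing notes, which give no roles, the tools were Salmon 1.10.1, STAR 2.7.9a, R 4.5.1 and edgeR 4.6.2 and the build was GRCm39. The collapsing of molecular identifiers, the annotation and the use of strand are not given in the sources used here. What the authors deposited are estimated counts of 56980 features. Of the lean values 13.04% were not whole (tolerance 0), so all were rounded. The authors deposited a scaling factor per library, a ratio that differed by at most 0.00191 from the trimmed-mean (TMM) factors recomputed here over all 18 libraries. The deposited log2 CPM values entered no result. RNA integrity is a score per sample deposited by the authors.

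CPM were computed as the count over the library total times its TMM factor (edgeR 4.0.16, R 4.3.3), and summed over 359 genes in 26 lists. Features sharing a symbol were summed. CVs use genes with a mean count of at least 20. The 14 pairs were tested on log2(CPM + 0.5) with a two-sided exact sign-flip permutation test and Benjamini-Hochberg adjustment (Python 3.11.15, numpy 2.4.6, pandas 2.3.3), which was tested on simulated data. The smallest p with 6 animals is 0.03125. Transcripts were aligned with BLAST 2.17.0. DESeq2 1.42.0 gave an alternative scaling. Genes named are the 4 most abundant and the most variable of each list, all neuropeptides at 10 CPM, the mitochondrial protein genes, the pairs, and the 15 most abundant and 15 most variable genes. Of these, 5 genes and 1 of the 14 pairs are not reported here. Other members were named after their values were seen, for their known roles. Depth was 2069960 to 3695646 counts per library; counting error limits genes near 1 CPM.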

Additional observations from a re-analysis of the deposited data

Results flagged for a closer look

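In a group of 6 animals, a value was picked out when the gap between the most extreme animal and its nearest neighbour was too large a share of the whole range by Dixon's test at its 95% critical value. Chance alone picks about 1 in 20 groups taken without regard to their values. That rate does not apply here, because many of the genes tested were named for their large CVs or after their values had been seen. Of 219 values tested, 45 were picked out, and 28 of these were in lean replicate 6, the library that stood apart over all genes. The values are not independent, because they come from the same 6 libraries.

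Replicate 6 was high for the oligodendrocyte sum and for 4 genes of glia. The values were the summed oligodendrocyte list (6406 CPM, others 2727 to 3465 CPM), Mbp (3882 CPM, others 1121 to 1632 CPM) and S100b (661 CPM, others 305 to 358 CPM). Also high were Sparcl1 (2278 CPM, others 1796 to 1866 CPM) and Slc1a2 (2133 CPM, others 1806 to 1868 CPM). Of the 12 oligodendrocyte genes, 6 were highest and 1 lowest in replicate 6, and its microglial sum, 429 CPM, lay within the range of the others, between 424 and 515 CPM. Replicate 6 was high for 5 ribosomal protein genes. The values were Rpl11 (1056 CPM, others 317 to 452 CPM), Rps12 (3366 CPM, others 1309 to 1733 CPM) and Rps14 (3079.7 CPM, others 1682 to 2048 CPM). Also high were Rps21 (3990.0 CPM, others 1378 to 1859 CPM) and Rps29 (2839 CPM, others 1541 to 1978 CPM). Replicate 6 was high for 4 nuclear and 2 mitochondrial genes of the respiratory chain. The values were Cox6c (2302 CPM, others 1091 to 1185 CPM), Cox8a (1115 CPM, others 725 to 754.7 CPM) and Atp5j (469 CPM, others 135 to 220.4 CPM). Also high were Atp5l (1275 CPM, others 877 to 1015 CPM), mt-Cytb (8952 CPM, others 7329 to 7798 CPM) and mt-Nd3 (5392 CPM, others 2418 to 3337 CPM). Of the 15 mitochondrial genes, 9 were highest and 3 lowest in replicate 6. Over all genes with a mean count of at least 20, 28.7% were highest and 34.1% lowest in that library. The same shares apply to the oligodendrocyte genes above. Further genes alone at the high end in replicate 6 were Higd1b (9.68 CPM, others 3.002 to 5.45 CPM), Hspb11 (32.6 CPM, others 4.94 to 12.3 CPM), Olfr859 (301 CPM, others 0.252 to 5.84 CPM), Slc17a7 (4.59 CPM, others 1.72 to 2.64 CPM) and Snhg6 (75.4 CPM, others 10.3 to 21.9 CPM). Replicate 6 was low for the summed peptide and hormone receptors (506 CPM, others 655 to 741 CPM), Atp1b1 (454 CPM, others 692 to 816 CPM) and Gabrb1 (76.97 CPM, others 175 to 222 CPM), and for Prlr (19.4 CPM, others 40.5 to 48.5 CPM), Syt1 (281 CPM, others 559 to 719.9 CPM) and Trh (14.8 CPM, others 39.02 to 52.6 CPM). Its log2 ratio of Agrp over Npy, -0.74, was above that of the others, -2.66 to -1.98.

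Replicate 4 was alone at the high end for Ankrd44 (46.7 CPM, others 9.35 to 14.3 CPM), Atad5 (32.6 CPM, others 2.34 to 5.79 CPM), Avp (176 CPM, others 33.6 to 73.3 CPM), Folr1 (1.29 CPM, others 0 to 0.45 CPM) and Npy (116 CPM, others 19.9 to 50.3 CPM), and for Ptp4a3 (33.02 CPM, others 6.8 to 11.2 CPM), Rgs9 (8.15 CPM, others 4.59 to 5.84 CPM), S100a8 (44.2 CPM, others 4.53 to 15.8 CPM) and Tekt1 (57.5 CPM, others 3.27 to 9.05 CPM). It had the only negative log2 ratio of Oxt over Avp, -0.61, with the others at 0.87 to 1.44. Replicate 1 was high for Chst3 (66.8 CPM, others 0 to 1.8 CPM) and Tnfrsf12a (53.6 CPM, others 1.02 to 14.4 CPM) and low for Slc1a3 (475 CPM, others 538 to 574 CPM). Replicate 2 was high for Dapk2 (68.5 CPM, others 0 to 1.95 CPM), Pdgfra (30.2 CPM, others 20.2 to 22.3 CPM) and Tbr1 (6.8 CPM, others 0 to 2.55 CPM). Replicate 5 was high for Tcf7l2 (131 CPM, others 49.7 to 77.99 CPM). Values of a few CPM, as for Slc17a7 and Tbr1, rest on few counts, and the 1.29 CPM of Folr1 in replicate 4 is 3 counts.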

How the results depend on the processing

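No paired analysis was possible because a single group was described and no groups were compared. Scaling by lean TMM factors, by library totals alone or by DESeq2 size factors moved no summed level by over 1 SD. Pseudocounts of 0 or 1 CPM and unrounded counts changed no call among the 13 pairs reported. Pseudocounts did change the size of ratios with a gene of a few CPM. With 0 CPM, Mc3r over Mc4r was -1.89, Avpr1a over Oxtr 1.04, Hcrtr1 over Hcrtr2 -0.49 and Slc17a6 over Slc17a7 5.82. With 1 CPM these were -1.38, 0.72, -0.39 and 5.31. With the mitochondrial counts left out of the total, list sums rose to, in CPM, neuropeptides 1395, granins and processing 4463, transmitter enzymes 435, peptide receptors 815, monoamine receptors 584, GABA and glutamate receptors 3204, nuclear receptors 2099, transporters 9713, hypothalamic factors 728, neuron 6295, astrocyte 12709, oligodendrocyte precursors 238, microglia 577, tanycyte 131, ependymal 107, endothelial 305, mural 194, fibroblast 64.9, choroid plexus 50.1, thalamus 340.0 and striatum 63.4, by construction of the smaller total, and 50% of counts was held by 748 features. Adding the nuclear copies, chosen after seeing the data, gave a mitochondrial sum of 180381 CPM. Without a count filter the median CV was 68.7%. With 1 animal left out, 5 remain and the smallest exact permutation p is 0.0625, so no pair can pass. A pair with all animals on the same side of 0 cannot change sign either. Oxt over Avp, Avpr1a over Oxtr and Hcrtr1 over Hcrtr2, which could, did not change sign with any animal left out. The log2 ratios then ran from -2.36 to -1.97 for Agrp over Npy, -1.69 to -1.46 for Agrp over Pomc, -0.61 to -0.46 for Gad2 over Gad1, 1.30 to 1.47 for Gria1 over Gria2, -1.51 to -1.15 for Hcrt over Pmch, -1.68 to -1.48 for Mc3r over Mc4r, 5.42 to 5.81 for Slc17a6 over Slc17a7, -1.82 to -1.76 for Slc1a3 over Slc1a2, -1.11 to -0.88 for Slc2a3 over Slc2a1 and -0.61 to -0.49 for Slc32a1 over Slc17a6.

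Leaving out 1 animal of 6 cannot move a mean by over 1 SD of the 6, so that comparison is no check on the list sums. The oligodendrocyte sum ran from 3115 CPM, without replicate 6, to 3851 CPM, and the median CV from 13.3%, without replicate 6, to 17.8%. Depth limits receptors and factors near 1 CPM, where counting error is large.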
